A study of Caenorhabditis elegans with 6 samples.

Results

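The 9 genes described here encode enzymes of peroxisomal fatty acid beta-oxidation that *C. elegans* uses to make ascarosides. They are the acyl-CoA oxidases *acox-1.1*, *acox-1.2*, *acox-1.3*, *acox-1.4*, *acox-1.5* and *acox-3*, the enoyl-CoA hydratase *maoc-1*, the 3-hydroxyacyl-CoA dehydrogenase *dhs-28* and the thiolase *daf-22*. They were looked up by gene name among the 46904 gene identifiers of the series, and all 9 were matched to an identifier. The rule for the list uses names and no measured value, but the list was drawn up with earlier results of these data known. Whole-worm RNA of the strain N2, the standard wild type, was sequenced in 6 libraries. In 3 of them the worms had been kept on plates with 50 µM CGP37157, an inhibitor of the mitochondrial Na+/Ca2+ exchanger, and in the other 3 on control plates without the compound. Treatment started in young adults at 20 °C, worms of both groups fed on *E. coli* OP50, were moved to new plates every day, and were collected at day 5. No mutation, transgene or second agent is given for either group. The labels do not say whether the replicates were separate cultures, so p-values here measure the spread between these libraries.

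In each turn of peroxisomal beta-oxidation an acyl-CoA oxidase introduces a double bond and releases hydrogen peroxide, MAOC-1 adds water, DHS-28 oxidizes the resulting hydroxyl group and DAF-22 cleaves off acetyl-CoA. Worms use this cycle to shorten the fatty acid-like side chains of ascarosides, small glycolipids that they release as pheromones and that can induce arrest as dauer larvae. Mutants in the later steps of the cycle lack short-chain ascarosides and form enlarged lipid droplets, and the intestine and hypodermis are the main tissues in which these enzymes are known to act.

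Total counts per library ran from 23821727 to 24551795 in CGP37157-treated worms and from 21122852 to 21245713 in control worms. Genes with at least 1 CPM (counts scaled to a common library size, for this filter by total counts alone) in at least 3 libraries were tested. This left 12385 genes, all 9 members among them. The CPM values given below are scaled with TMM factors as well. Control replicate 2 stood apart. Its TMM factor was 0.815, against 0.955 to 1.13 in the other libraries, and it lay farthest from the rest on the first principal component, so values without it are given beside the results that it moves most. Of the marker genes for parts of the worm, 6 of 8 intestinal genes had log2 fold changes above 0 and 2 below. They ranged from -0.59 for *vit-2* to 0.51 for *elt-7*, with a median of 0.15. The summed level of the 8 was 57200 to 62100 CPM in treated libraries and 59100 to 115000 CPM in control libraries. Nearly all of this sum came from the yolk protein genes *vit-2* and *vit-5*, the 2 below 0. The 6 hypodermal genes summed to 971 to 1550 CPM in treated libraries and 1040 to 1850 CPM in control libraries, nearly all of it from the collagen gene *col-19*. Of the 4 tested hypodermal genes 1 had a log2 fold change above 0 and 3 below (median -0.19). All 6 tested genes of body-wall muscle lay between -0.50 and -0.28, and the 4 tested genes of the pharynx between -0.56 and -0.26. No marker gene passed an adjusted p of 0.05, and the part of these shifts in the members' values was not tested.

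With edgeR's quasi-likelihood test and Benjamini-Hochberg adjustment over all tested genes, none of the 9 members passed an adjusted p of 0.05 (0 of 9), where 1.4% of all tested genes did, 1.16% with higher and 0.234% with lower levels in treated worms. The adjusted p was 0.128 for *acox-1.3*, 0.268 for *daf-22* and 1 for each of the other 7 genes. At an unadjusted p under 0.05 there were 2 members, *acox-1.3* and *daf-22*, beside 4.79% of all tested genes. DESeq2 called 1 of the 9, *acox-1.3*, where it called 2.1% of all genes (0.484% as lower). The likelihood ratio test of edgeR also called *acox-1.3* alone, where it called 2.08% of all genes (0.533% as lower). The log2 fold changes of the members, treated over control, lay between -1.13 and 0.76 with a median of 0.08, where the median over all tested genes was -0.014. Of the 9 values 5 were above 0 and 4 below. The treated libraries did not overlap the control libraries in 5 of the 9 genes, lying above them in 3 and below them in 2. Over all tested genes this held for 7.54%, with 3.85% above and 3.69% below. RNA came from whole worms, so fewer cells of one type and less RNA per cell cannot be told apart.

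**Figure D1:**
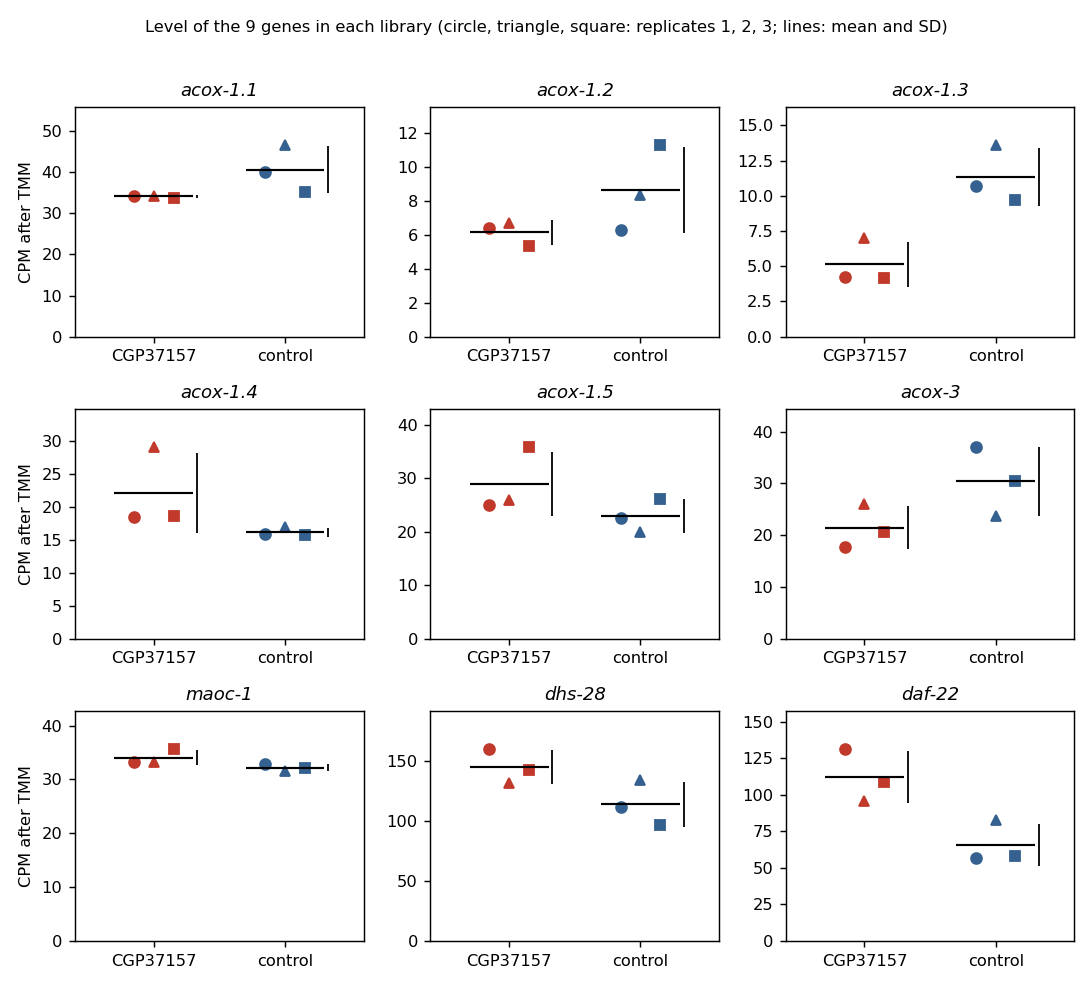
Level of each of the 9 genes in CPM after TMM scaling in the CGP37157 libraries (red) and the control libraries (blue), with the mean (horizontal line) and SD (vertical line) of 3 libraries per group. The groups are apart for *acox-1.3*, at 4.18 to 6.97 CPM in treated worms and 9.7 to 13.6 CPM in control worms, and for *daf-22*, at 96 to 131 CPM in treated worms and 57 to 82.5 CPM in control worms. They also do not overlap for *acox-1.1*, *acox-1.4* and *maoc-1*.

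The acyl-CoA oxidase genes *acox-1.1* to *acox-1.4* stand in a row on the plus strand of chromosome I. In the WBcel235 assembly, on which the Ensembl annotation used here is built, the row runs from 12938555 to 12954003, a span of 15449 bases with no other protein-coding gene wholly inside it. Between *acox-1.1* and *acox-1.2* there are 52 bases, between *acox-1.2* and *acox-1.3* 343 bases, and between *acox-1.3* and *acox-1.4* 34 bases. Each is annotated as protein-coding. They are related in sequence, and how the counting treated reads that match more than one of them is not given in the sources used here, so the values of single genes of the row carry that uncertainty.

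ACOX-1.1 is the oxidase required for short-chain ascarosides, and works as a homodimer or together with other ACOX-1 subunits. The gene *acox-1.1* (WBGene00008564, 12938555 to 12942227) had the highest CPM of the row. Its level was 34.2, 34.3 and 33.8 CPM in CGP37157 replicates 1, 2 and 3, against 40.1, 46.6 and 35.2 CPM in control replicates 1, 2 and 3. The 3 treated libraries were nearly equal and all lay below the control libraries, by a small margin from control replicate 3. On the log2 scale the fold change was -0.25 (95% interval -0.69 to 0.19), and it was -0.14 without control replicate 2.

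ACOX-1.2, which acts on ascaroside side chains attached at their terminal carbon, is encoded by the next gene of the row (WBGene00008565, 12942280 to 12946588). *acox-1.2* was weakly expressed, at 6.42, 6.71 and 5.34 CPM in treated worms, against 6.3, 8.35 and 11.3 CPM in control worms. Control replicate 1 fell among the treated libraries, so the groups overlapped. The fitted log2 fold change of *acox-1.2* was -0.49 (95% interval -1.1 to 0.12), and leaving out control replicate 3 brought it to -0.25.

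The third gene of the row, *acox-1.3* (WBGene00008566, 12946932 to 12951099), encodes a subunit that pairs with ACOX-1.1 and changes the length of side chain that the enzyme accepts. This identifier was listed as *acox-3* in the supplement of the study, which singled it out on these same libraries, and its choice is therefore not independent of its values. The counts were 97, 191 and 98 reads in CGP37157 replicates 1, 2 and 3, against 256, 234 and 213 reads in control replicates 1, 2 and 3. After scaling the levels were 4.26, 6.97 and 4.18 CPM in treated worms, against 10.7, 13.6 and 9.7 CPM in control worms. All treated libraries lay below all control libraries, and CGP37157 replicate 2 was the nearest to them. The mean was 5.14 ± 1.58 CPM in treated worms and 11.3 ± 2.01 CPM in control worms (SD, n = 3 each). This is a log2 fold change of -1.13 with a standard error of 0.28 (95% interval -1.76 to -0.51), or 0.456 times the control level (interval 0.296 to 0.702).

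This was the smallest p among the members, rank 220 of the 12385 genes, but it did not pass after adjustment (edgeR, adjusted p = 0.128). The call depended on the tool and on the genes tested. The adjusted p was 0.0187 with DESeq2, 0.0198 with edgeR's likelihood ratio test and 0.0439 in the quasi-likelihood test without a low-count filter. In the 6 fits that left out a library the log2 fold change lay between -1.42 and -0.98, and the adjusted p between 0.0777 and 0.595 in the quasi-likelihood test. It was -0.98 (adjusted p = 0.225) without control replicate 2.

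*acox-1.4* (WBGene00008567, 12951134 to 12954003) begins 34 bases after the end of *acox-1.3* and encodes another acyl-CoA oxidase of the same type. Its level was 18.5, 29 and 18.6 CPM in treated worms, against 15.8, 16.9 and 15.7 CPM in control worms. The treated libraries all lay above the control libraries, CGP37157 replicate 2 by far the most. The fold change was 0.45 on the log2 scale (95% interval -0.07 to 0.98), and it was 0.20 without CGP37157 replicate 2. The gene shares 35 exonic bases with *F08A8.8* on the opposite strand, which had a log2 fold change of -0.14 (adjusted p of 1).

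Because these genes were read in the same libraries, the ratio of their counts does not depend on how the libraries were scaled. Such ratios were computed for 6 pairs, a choice made after the values were seen. The log2 ratio of *acox-1.4* to *acox-1.3* was 2.11, 2.06 and 2.15 in CGP37157 replicates 1, 2 and 3, against 0.56, 0.31 and 0.69 in control replicates 1, 2 and 3. Its mean was 2.11 ± 0.05 in treated worms and 0.52 ± 0.19 in control worms (SD, n = 3 each), a difference of 1.59. The spread within groups was small beside this difference, although both genes were highest among the treated libraries in CGP37157 replicate 2. A two-sided exact permutation test gave p = 0.1, the smallest that 3 against 3 libraries allow (0.2 adjusted over the 6 ratios). For the other neighbours in the row the group means lay closer. The log2 ratio of *acox-1.3* to *acox-1.2* averaged -0.30 ± 0.33 in treated worms and 0.41 ± 0.55 in control worms (exact permutation p = 0.2), and that of *acox-1.2* to *acox-1.1* averaged -2.48 ± 0.16 in treated worms and -2.26 ± 0.55 in control worms (exact permutation p = 0.9; SD, n = 3 each). The genes beside the row were near or under the low-count filter. *tag-138*, before *acox-1.1*, had 4 to 7 counts in treated libraries and 6 to 9 in control libraries and was not tested, and *F08A8.5*, after *acox-1.4*, had a log2 fold change of -0.24 (95% interval -0.92 to 0.44).

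**Figure D2:**
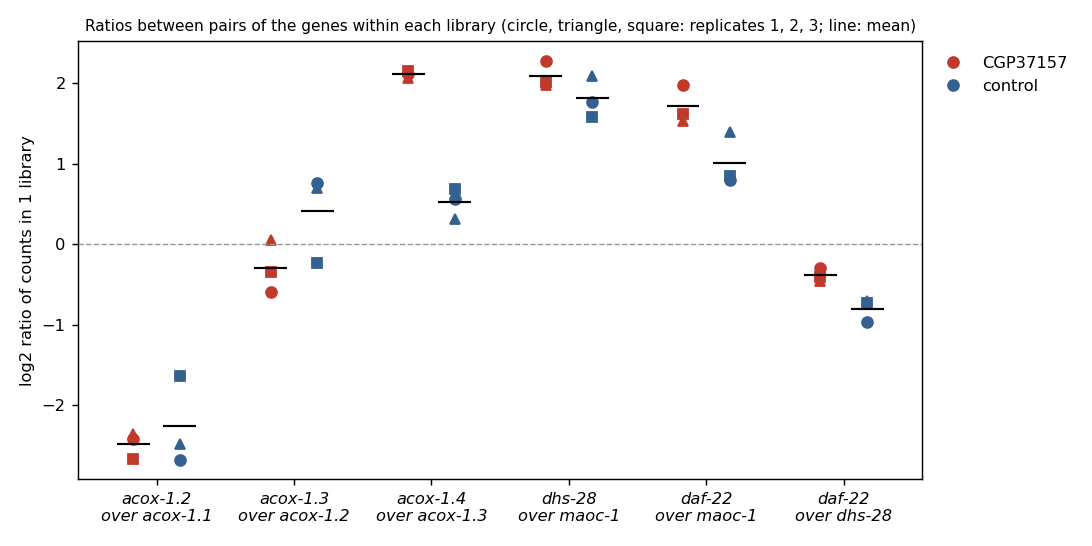
Log2 ratio of the counts of 2 genes within each library, for 6 pairs, in CGP37157 libraries (red, left of each pair) and control libraries (blue), with the mean of each group as a line. The ratio of *acox-1.4* to *acox-1.3* lies between 2.06 and 2.15 in treated worms and between 0.31 and 0.69 in control worms, and the ratio of *daf-22* to *dhs-28* between -0.46 and -0.29 in treated worms and between -0.97 and -0.70 in control worms.

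The remaining oxidases among the members lie alone. *acox-1.5* (WBGene00008167, chromosome III, 9586618 to 9592192, minus strand) had 25, 25.9 and 35.8 CPM in treated worms, against 22.6, 20 and 26.2 CPM in control worms. The groups overlapped because control replicate 3 exceeded 2 of the treated libraries. Each treated library lay above the control library of the same number, but no pairing by number was assumed. The log2 fold change of *acox-1.5* was 0.33 (95% interval -0.17 to 0.84), and it was 0.16 without CGP37157 replicate 3. With the replicate number as a block it was 0.32 (edgeR's quasi-likelihood test, unadjusted p = 0.178). *acox-3* (WBGene00019060, chromosome IV, 6245358 to 6248492, minus strand) is a different gene from the identifier that the study's supplement gives under that name. It had 17.7, 26 and 20.7 CPM in treated worms, against 37, 23.7 and 30.5 CPM in control worms. Control replicate 2 lay below CGP37157 replicate 2, so these groups overlapped too. For this gene the log2 fold change was -0.50 (95% interval -1.04 to 0.04). It was -0.65 without control replicate 2 and -0.34 without control replicate 1. Over the 6 fits that left out a library it lay between -0.66 and -0.34.

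The 6 oxidase genes among the members were also described as shares of their sum. Each CPM was first divided by the length of the gene's annotated exons, between 2058 and 2519 bases. The sum leaves out *acox-1.6*, an oxidase gene that is not a member. It had 25.7, 30.7 and 25.7 CPM in treated worms, against 34.7, 36.9 and 22.9 CPM in control worms. On this per-length scale *acox-1.3* made up 4.2%, 5.58% and 3.66% of the sum of the 6 in CGP37157 replicates 1, 2 and 3. It made up 8.39%, 11.1% and 7.8% in control replicates 1, 2 and 3. The share of *acox-1.4* was 18.5%, 23.7% and 16.6% in treated worms, against 12.6%, 14% and 12.8% in control worms. For *acox-1.1* the share was 28.2%, 22.9% and 24.8% in treated worms, against 26.3%, 31.8% and 23.7% in control worms. Among these 6 genes it was first or second in every library. A share falls when another gene's level rises, so these values describe proportions and not levels.

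MAOC-1, the hydratase of the second step, is encoded by *maoc-1* (WBGene00017123, chromosome II, 7196276 to 7197495, plus strand). Its level varied least between the group means. It was 33.2, 33.3 and 35.6 CPM in treated worms, against 32.8, 31.5 and 32.2 CPM in control worms. The treated libraries lay above the control libraries by a narrow margin, and the log2 fold change was 0.08 (95% interval -0.33 to 0.49). The interval leaves room for a treated level between 0.794 and 1.41 of the control level. The gene shares 105 exonic bases with *E04F6.6* on the opposite strand. That gene had 7.16, 15 and 9.86 CPM in treated worms, against 6.01, 4.99 and 7.06 CPM in control worms, and the difference of 0.83 on the log2 scale did not pass (edgeR, adjusted p = 0.626). The library kit keeps strand, but whether the counting used it is not given in the sources used here.

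DHS-28, the dehydrogenase of the third step, is encoded by *dhs-28* (WBGene00000991, chromosome X, 6818438 to 6820080, plus strand), the most abundant of the 9 transcripts. The level was 160, 132 and 143 CPM in treated worms, against 112, 134 and 96.6 CPM in control worms. Control replicate 2 lay between the treated libraries, and the other control libraries lay below all of them. The estimate was 0.34 on the log2 scale (95% interval -0.11 to 0.79). It was 0.48 without control replicate 2 and 0.24 without control replicate 3, the highest and lowest of the 6 fits that left out a library. The gene shares 76 exonic bases with *gei-15* on the opposite strand, which had a log2 fold change of -0.23 (adjusted p of 1).

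DAF-22, the thiolase of the last step, is encoded by *daf-22* (WBGene00013284, chromosome II, 12423518 to 12425694, minus strand), and no annotated gene overlaps it. The counts were 2982, 2631 and 2543 reads in CGP37157 replicates 1, 2 and 3, against 1365, 1422 and 1276 reads in control replicates 1, 2 and 3. After scaling the levels were 131, 96 and 109 CPM in treated worms, against 57, 82.5 and 58.1 CPM in control worms. The treated libraries lay above the control libraries, with control replicate 2 the nearest. The mean was 112 ± 17.8 CPM in treated worms and 65.8 ± 14.4 CPM in control worms (SD, n = 3 each). Fitted over all genes, this was 0.76 on the log2 scale with a standard error of 0.22 (95% interval 0.27 to 1.26), a treated level 1.7 times the control level (interval 1.21 to 2.39). After adjustment it did not pass (edgeR, adjusted p = 0.268).

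No setting called *daf-22*. The adjusted p was 0.0743 with DESeq2 and 0.101 with edgeR's likelihood ratio test. In the quasi-likelihood test the log2 fold change was 0.96 (adjusted p = 0.0552) without control replicate 2. Over the 6 fits that left out a library it lay between 0.64 and 0.96, with adjusted p between 0.0552 and 1.

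The 3 genes after the oxidase step were also set against each other within libraries, where 3 against 3 libraries cannot give an exact p under 0.1. The log2 ratio of *daf-22* to *dhs-28* counts was -0.29, -0.46 and -0.40 in treated worms, against -0.97, -0.70 and -0.73 in control worms, and the groups did not overlap. The difference of the means was 0.42, with an exact permutation p of 0.1, the smallest possible (0.2 adjusted over the 6 ratios). For *daf-22* over *maoc-1* the values were 1.98, 1.53 and 1.61 in treated worms, against 0.80, 1.39 and 0.85 in control worms. The difference was 0.69 (exact permutation p = 0.1, 0.2 adjusted over the 6 ratios). This pair was chosen after the values were seen. With a log2 fold change of 0.08 for *maoc-1*, the ratio largely repeats the difference of *daf-22* alone. *dhs-28* over *maoc-1* averaged 2.09 ± 0.16 in treated worms and 1.81 ± 0.26 in control worms (SD, n = 3 each), and these groups overlapped (exact permutation p = 0.3).

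**Figure D3:**
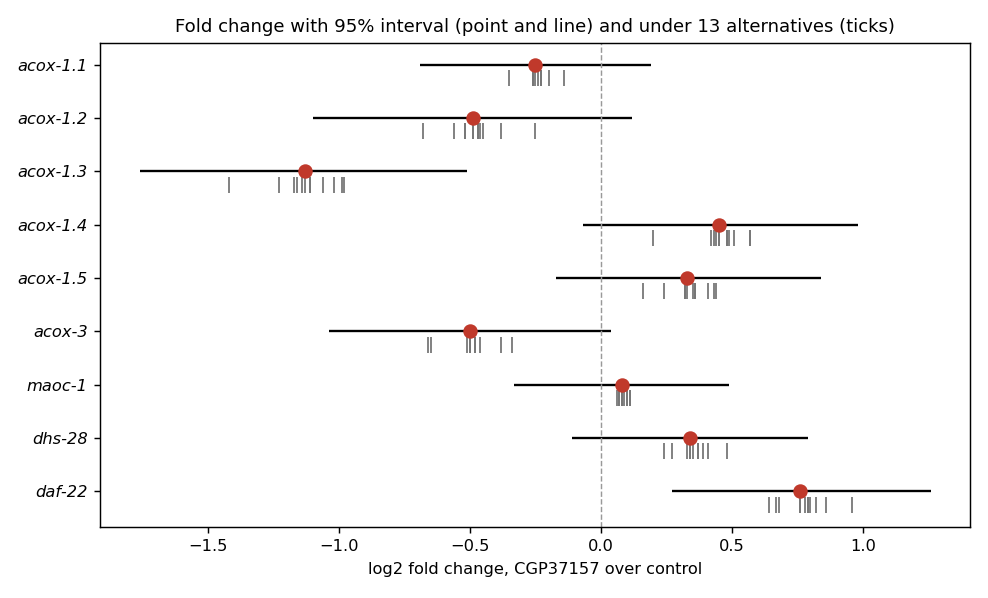
Log2 fold change of each gene, CGP37157 over control, from edgeR's quasi-likelihood test with its 95% interval (point and line), and the values under 13 alternative settings (grey ticks below). The intervals of *acox-1.3* (-1.76 to -0.51) and *daf-22* (0.27 to 1.26) leave out 0, those of the other 7 genes include it, and no alternative turned the sign of any gene.

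Per kilobase of exon the later enzymes were more abundant than the 6 oxidases among the members. In treated worms the mean levels were 103 ± 10.2 CPM per kb for *dhs-28*, 83.9 ± 13.3 for *daf-22* and 32 ± 1.25 for *maoc-1*. In control worms they were 81 ± 13.4 for *dhs-28*, 49.4 ± 10.8 for *daf-22* and 30.3 ± 0.602 CPM per kb for *maoc-1* (SD, n = 3 each). The oxidases lay lower, between 2.44 and 13.9 CPM per kb in treated worms and between 4.18 and 16.1 CPM per kb in control worms. The levels of *dhs-28* and *daf-22* overlapped between treated libraries and not between control libraries. Among the oxidases, *acox-1.5*, *acox-1.1*, *acox-1.4* and *acox-3*, in falling order in treated worms, each overlapped the next, and *acox-1.2* overlapped *acox-1.3* at the bottom of the order. In control worms *acox-1.1*, *acox-3* and *acox-1.5* overlapped in turn, *acox-1.4* lay below them, and *acox-1.3* and *acox-1.2* overlapped below that. *acox-1.3* was thus last of the 9 in treated worms and eighth in control worms. The mean over the 6 libraries put *dhs-28* above 89.3% and *acox-1.3* above 27.5% of the tested genes on this scale.

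A further list of 20 genes held other enzymes of peroxisomal beta-oxidation and of ascaroside assembly, among them members of the carboxylesterase family, some of which attach further groups to ascarosides. Of these, 18 were tested, 1 was higher in treated worms at an adjusted p under 0.05 and none was lower. Over all tested genes 1.16% were higher and 0.234% lower. At an unadjusted p under 0.05 in the quasi-likelihood test there were 5 of the 18, beside 4.79% of all tested genes. Of the 18 log2 fold changes 13 were above 0 and 5 below (median 0.23). The gene that rose was *cest-33*, at 176, 247 and 169 CPM in treated worms, against 19.5, 12.2 and 16 CPM in control worms. It belongs to the carboxylesterase family, and a part of it in ascaroside assembly was not tested. The groups were far apart, with a difference of 3.63 on the log2 scale and a standard error of 0.27 (edgeR, adjusted p = 2.72e-05). The lowest value of the list was that of *cest-1.1*, with 1.98, 1.2 and 1.32 CPM in treated worms, against 3.63, 1.28 and 7.92 CPM in control worms. These groups overlapped, and the log2 fold change of -1.52 did not pass (adjusted p = 0.599).

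The lists of further peroxisomal genes gave no called gene. The 11 peroxins, which build peroxisomes and import their enzymes, had log2 fold changes between -0.26 for *prx-2* and 0.28 for *prx-19*, with a median of 0.10. The 5 ABC transporters listed as peroxisomal, *pmp-1* to *pmp-5*, lay between -0.25 for *pmp-4* and 0.18 for *pmp-1*, with a median of 0.02. Among 10 other peroxisomal enzymes, such as catalase and the enzymes that start ether lipid synthesis, the values ran from -0.27 for *ctl-3* to 0.94 for *ddo-1*, and the median was 0.07. In the 3 lists together no gene passed with DESeq2 either, and 1 gene, among the other enzymes, had an unadjusted p under 0.05 in the quasi-likelihood test.

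Mitochondria hold the parallel pathway, with acyl-CoA dehydrogenases in place of oxidases. Of 20 listed genes 19 were matched to an identifier and 18 were tested. In the quasi-likelihood test 1 was lower in treated worms, where 0.234% of all tested genes were lower, and none was higher. The median log2 fold change was -0.09. The gene that fell was *acdh-1*, a short/branched-chain acyl-CoA dehydrogenase, at 13.2, 20.2 and 21 CPM in treated worms, against 48.3, 60.9 and 70.4 CPM in control worms (edgeR, adjusted p = 0.0048). DESeq2 called 2 genes lower, where it called 0.484% of all genes lower. They were *acdh-1* and *acdh-2*, another acyl-CoA dehydrogenase, named after its values were seen. *acdh-2* had 25.1, 34.4 and 17.2 CPM in treated worms, against 76.8, 46.9 and 49.7 CPM in control worms, without overlap. DESeq2 gave it an adjusted p of 0.0151, and edgeR gave 0.0164 by the likelihood ratio test and 0.141 by the quasi-likelihood test. At the other end *ech-1.1* had a log2 fold change of 0.12. Nuclear receptors and other regulators of lipid genes, 13 in number, lay between -0.41 for *nhr-25* and 0.19 for *nhr-10*, and none was called. *nhr-49*, a receptor that controls fatty acid oxidation and desaturation, had 74.4, 85.9 and 94.2 CPM in treated worms, against 78.4, 80.7 and 94.8 CPM in control worms.

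**Figure D4:**
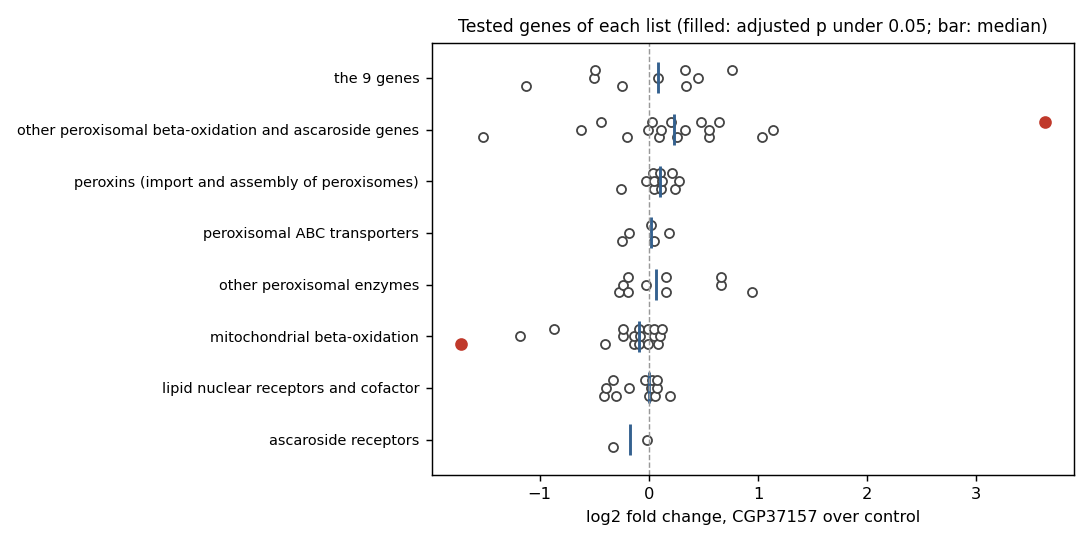
Log2 fold change, CGP37157 over control, of every tested gene in the 9 genes and in 7 related lists, with filled points for an adjusted p under 0.05 in edgeR's quasi-likelihood test and a bar at each median. The filled points are *cest-33* at 3.63 and *acdh-1* at -1.72, and the 9 genes spread from -1.13 to 0.76.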

How the data were processed

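The deposited files hold whole-number counts per gene identifier for the 6 libraries, which the authors left unnormalized; a further table repeats them and was not used. The submitters' processing notes name HISAT2, featureCounts, DESeq2 and edgeR. Versions, genome build and the treatment of multiply matching reads are not given in the sources used here. The authors' normalized values, fold changes and p-values were not used.

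Counts were tested with edgeR 4.0.16 (glmQLFit and glmQLFTest, TMM) in R 4.3.3, with the condition alone, after removal of genes below 1 CPM in 4 or more libraries. Standard errors came from the test statistic. Groups and replicates followed the sample labels. Alternatives were DESeq2 1.42.0, the likelihood ratio test, other scalings and filters, a block for the replicate number, and each library left out in turn. Symbols came from a gene name table and positions and exon lengths from the Ensembl annotation of WBcel235, matched by identifier. Simulated counts for 12385 genes, 200 of them changed, were tested. The quasi-likelihood test found 96% of 4-fold and 19% of 2-fold changes, with 9 false calls. The likelihood ratio test found 98% and 35%, with 19 false calls, and DESeq2 98% and 38%, with 22. The lowest count of a member was 97, a counting error of 10.2%.

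The members and lists were chosen with earlier results of these data known. Named genes are the members, called genes and the extremes of each list, the 3 genes of most similar profile for 2 members, and genes beside or overlapping a member. *nhr-49*, *acdh-2* and the pairs for the within-library ratios were chosen after their values were seen.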

Additional observations from a re-analysis of the deposited data

How the results depend on the processing

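The sign of all 9 members held under the 13 alternatives. Of 117 pairs of member and alternative, all but 3 stayed on the same side of the threshold, and those 3 were *acox-1.3*. Its log2 fold change and the number of members called were -1.11 and 1 with DESeq2, -1.13 and 1 with the likelihood ratio test, and -1.11 and 1 with no low-count filter. The number of genes called in all was 173, and it was 260 with DESeq2, 274 with no low-count filter and between 130 and 194 with a library left out. It was 258, 66 of them lower, with the likelihood ratio test. Without the filter 21932 genes were tested in place of 12385. The cause of these shifts was not tested. The number called among the members was 0 in each fit that left out a library.

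Deviations from the group means correlated at 0.105, -0.508 and 0.387 between libraries of equal number. Such libraries also share a suffix in their labels, whose meaning the labels do not state, and no pairing was assumed. With the replicate number as a block 137 genes and 0 members were called, and the log2 fold changes were -1.16 for *acox-1.3* and 0.78 for *daf-22*. No pair of replicates agreed within sampling noise (at least 47.4 chi-square per degree of freedom). With 3 libraries per group, changes near 2-fold are often missed, so the values that did not pass do not show equal levels.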

Other observations

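Receptors for ascarosides are known from sensory neurons, and few of them passed the low-count filter in whole worms. Of 9 listed receptor genes 2 were tested, and *srg-36* had no count in any library. The log2 fold change was -0.02 for *daf-37* and -0.33 for *daf-38*, which encode G protein-coupled receptors that act in ascaroside perception, and neither was called (adjusted p of 1 for both in edgeR's quasi-likelihood test).

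The tested genes whose log2 CPM over the 6 libraries, centred on each gene's mean, lay nearest to that of *daf-22* were *spig-1*, *kel-8* and *sqst-5*, with root mean square differences of 0.063, 0.075 and 0.086. Their log2 fold changes were 0.85, 0.79 and 0.67. Within a difference of 0.2 there were 48 of 12376 genes. For *acox-1.3* the nearest were *ZK287.4*, *F22F7.8* and *K11H3.5*, with differences of 0.152, 0.164 and 0.189, log2 fold changes of -1.17, -1.2 and -0.91, and 5 genes within 0.2. None of the 6 genes had an adjusted p under 0.05. Among the members themselves, *acox-1.5* and *maoc-1* were the most alike, with a difference of 0.208, and *acox-1.3* and *daf-22* the least alike, with 1.026. A match over 6 libraries is a description of these samples.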
